A study of Mus musculus with 8 samples.

Results

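Expression of T and B lymphocyte genes was followed library by library in epididymal white adipose tissue (eWAT) and in liver of mice with and without the CREB-regulated coactivator Crtc1: Cd3d, Cd3e, Cd3g, Cd2, Cd8a, Cd79a, Cd79b, Ms4a1 and Ptprcap, 9 of the 19348 genes of the deposited table. The genes were chosen by measured values, because 1 wild-type eWAT library held far more of their reads than the other, so their levels in these 8 libraries are given as a description with no test. RNA-seq was performed on male C57BL/6 mice aged 12 weeks that were kept on a normal diet and fasted for 16 h. Crtc1-/- mice were made with CRISPR/Cas9 guides to exons 2 and 4, and Crtc1+/+ littermates came from the same heterozygous intercrosses. Each of the 4 groups, eWAT Crtc1+/+, eWAT Crtc1-/-, liver Crtc1+/+ and liver Crtc1-/-, held 2 libraries. The paper describes 2 selected mice per genotype and RNA from pieces of liver and eWAT, so the tissues may share animals. It is not known whether same-numbered liver and eWAT libraries came from 1 mouse. Libraries held between 16560085 and 19721481 estimated counts, and levels are given as CPM, each gene's share of the library total, scaled by the trimmed mean of M-values (TMM) within each tissue.

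T cells recognise peptide antigens through the T cell receptor, whose signal is carried into the cell by the CD3 chains. B cells recognise intact antigen through surface immunoglobulin, whose signal is carried by the CD79 pair. Both cell types circulate between blood and lymph nodes, which lie embedded in fat, and both are found in small numbers within adipose tissue and liver. Cd3d, Cd3e and Cd3g encode the CD3 delta, epsilon and gamma chains, Cd2 an adhesion receptor of T and NK cells, and Cd8a a chain of the co-receptor of cytotoxic T cells. Cd79a and Cd79b encode the signalling pair of the B cell receptor, and Ms4a1 encodes CD20, a surface protein of B cells. Ptprcap encodes a small membrane protein that associates with the phosphatase CD45 in both lineages.

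The 3 CD3 genes form a cluster on chromosome 9 (GRCm38.p6), with Cd3g at chr9:44969572-44980431 on the minus strand, Cd3d at chr9:44981769-44987052 on the plus strand and Cd3e at chr9:44998735-45009663 on the minus strand. Only 1337 bases separate the divergently transcribed Cd3g and Cd3d, and the whole cluster spans 40092 bases. Cd2 lies at chr3:101275908-101287939, Cd8a at chr6:71373427-71379171, Cd79a at chr7:24897497-24901858, Cd79b at chr11:106311341-106314562, Ptprcap at chr19:4154646-4156710 and Ms4a1 at chr19:11249679-11266149. Exons of Ptprcap overlap those of Coro1b on the same strand and Rps6kb2 on the opposite strand in the GENCODE annotation, so reads may have been split between them, and exons of Cd3e overlap the antisense gene Gm48719. Coro1b held 2908 and 2073 counts in the eWAT Crtc1+/+ libraries, a far smaller gap than the 397 and 14 counts of Ptprcap.

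RefSeq promoter windows of 300 bases, most of them upstream of a start site, were at hand for 5 of the 9 genes. They are shown for the T cell genes Cd3d and Cd3e, neighbours whose levels are compared below, and for Cd79a, the gene with the widest gap between libraries. Capitals mark matches on either strand to AGGAAG, a core recognised by ETS factors. They also mark the E-box form CAGNTG, which is recognised by E proteins.
Cd3d promoter, chr9:44981536-44981835, plus strand: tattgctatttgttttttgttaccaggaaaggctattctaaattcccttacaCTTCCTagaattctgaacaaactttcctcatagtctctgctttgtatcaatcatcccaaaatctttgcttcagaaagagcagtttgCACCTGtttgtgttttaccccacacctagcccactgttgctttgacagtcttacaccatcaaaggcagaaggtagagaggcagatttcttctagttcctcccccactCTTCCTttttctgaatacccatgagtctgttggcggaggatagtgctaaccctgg
Cd3e promoter, chr9:45009562-45009861, minus strand: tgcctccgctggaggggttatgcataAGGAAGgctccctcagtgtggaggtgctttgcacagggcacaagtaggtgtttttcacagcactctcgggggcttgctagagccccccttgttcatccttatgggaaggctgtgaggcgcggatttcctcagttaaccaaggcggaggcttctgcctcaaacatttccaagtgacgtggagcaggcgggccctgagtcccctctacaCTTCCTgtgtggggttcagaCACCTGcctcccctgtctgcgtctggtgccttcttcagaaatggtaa
Cd79a promoter, chr7:24897247-24897546, plus strand: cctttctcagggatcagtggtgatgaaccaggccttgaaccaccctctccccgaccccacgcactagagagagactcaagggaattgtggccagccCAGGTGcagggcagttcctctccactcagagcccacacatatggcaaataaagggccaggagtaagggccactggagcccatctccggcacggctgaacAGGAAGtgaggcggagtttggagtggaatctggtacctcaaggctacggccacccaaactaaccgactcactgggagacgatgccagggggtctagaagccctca

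Cd3d and Cd3e each held 2 ETS matches and 1 E-box match, and Cd79a held 1 of each. These letters are common, as the ETS core was present in 35.4% and the E-box form in 51.4% of all 32851 windows of this length. The RUNX core TGTGGT was in none of the 5 windows and in 16.8% of all windows. Nor did the 5 windows hold the EBF motif CCCNNGGG, found in 13.7% of all, the octamer ATGCAAAT, found in 1.74%, or the TATA box TATAAA, found in 13.6%. Matches and their absence describe only the letters in these windows.

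Several libraries stood apart from their labels before any lymphocyte gene was considered. Both eWAT Crtc1+/+ libraries were dominated by transcripts of the epididymis, with 9 marker genes summing to 57676 and 70781 CPM against 33.7 and 13.1 CPM in the eWAT libraries labelled Crtc1-/-. Summed levels of 10 adipocyte markers went the other way, at 2188 and 3506 CPM against 45364 and 26387 CPM, so the tissue label of the Crtc1+/+ libraries was not borne out by its defining genes. The second eWAT library labelled Crtc1-/- carried 110210 CPM of 10 hepatocyte markers, and the first Crtc1+/+ library carried 4788 CPM against 622 CPM in the second. Crtc1 itself was not lower in the libraries labelled Crtc1-/-, at 58.5 and 33.6 CPM against 32.6 and 33.7 CPM in eWAT and 22.1 and 17.98 CPM against 11.7 and 9.87 CPM in liver. The table sums reads over the whole gene, so reads outside the deleted exons are included and the deletion could not be checked. Genotypes are therefore given as labelled.

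T cell genes were highest in the first eWAT Crtc1+/+ library and low in the second, with both eWAT libraries labelled Crtc1-/- mostly lying between them. In eWAT, Cd3d was at 10.4 and 0.519 CPM in Crtc1+/+ and at 5.50 and 1.18 CPM in Crtc1-/-, replicates 1 and 2 in order. The gap between the wild-type libraries was 20.1-fold and contained both Crtc1-/- values. Cd3g gave 8.09 and 0.778 CPM in Crtc1+/+ and 6.93 and 1.32 CPM in Crtc1-/-, the closest approach of the first Crtc1-/- library to the first Crtc1+/+ library. Cd3e gave 7.66 and 1.19 CPM in Crtc1+/+ and 3.79 and 0.417 CPM in Crtc1-/-, so its lowest value belonged to a Crtc1-/- library. The groups overlapped for all 3 chains, which are subunits of 1 complex.

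Cd2 was at 9.25 and 0.674 CPM in eWAT Crtc1+/+ and at 6.98 and 1.81 CPM in Crtc1-/-. Cd8a, which marks cytotoxic T cells, was at 9.10 and 0.363 CPM in Crtc1+/+ and at 4.12 and 0.139 CPM in Crtc1-/-, where the last value rested on 2 counts. In both genes the first replicate of each genotype stood high and the second low.

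B cell genes separated the wild-type libraries further. Cd79a was at 27.2 CPM (564 counts) and 0.259 CPM (5 counts) in eWAT Crtc1+/+, a 104.8-fold gap, and at 4.62 and 3.19 CPM in Crtc1-/-. Cd79b gave 16.96 and 0.467 CPM in Crtc1+/+, a 36.3-fold gap, and 6.71 and 2.85 CPM in Crtc1-/-. The 2 eWAT libraries labelled Crtc1-/- differed less in these genes, by 1.45-fold for Cd79a and 2.36-fold for Cd79b, than in the CD3 genes, where they differed by 4.66-fold to 9.10-fold. Ms4a1 was the scarcest member, with 33 counts (1.59 CPM) and 0 counts in Crtc1+/+ and 6 and 2 counts in Crtc1-/-. A count of 0 allows up to 0.156 CPM (3 counts), so Ms4a1 was at least 10.2-fold higher in the first wild-type library than in the second. Ptprcap, shared by both lineages, was at 19.1 and 0.726 CPM in Crtc1+/+ and at 12.1 and 3.82 CPM in Crtc1-/-.

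**Figure D1:**
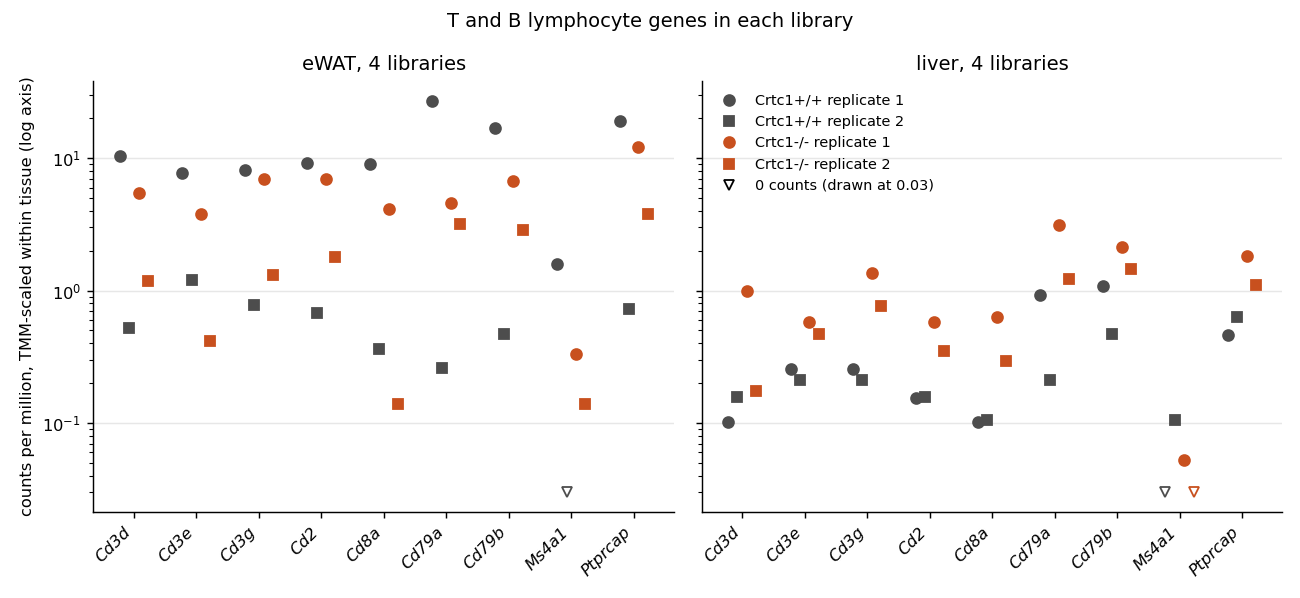
Levels of the 9 genes in every library, in CPM scaled within tissue on a log axis, with Crtc1+/+ in grey and Crtc1-/- in orange, circles for replicate 1 and squares for replicate 2. In eWAT the grey circle is highest for all 9 genes and the grey square lowest for 7, while in liver both orange points lie above both grey points for 8 genes.

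Summed over the 9 genes, eWAT held 109 CPM (2270 counts, 95% exact Poisson interval 104.9 to 113.9) and 4.98 CPM (96 counts, 4.03 to 6.08) in Crtc1+/+ and 51.1 and 14.9 CPM in Crtc1-/-. These intervals cover counting error only. The sum differed by 21.96-fold between the wild-type libraries and by 3.44-fold between the Crtc1-/- libraries. All 9 genes had their highest eWAT value in the first Crtc1+/+ library and their next highest in the first Crtc1-/- library. For 7 of 9 the second Crtc1+/+ library was lowest as well, the exceptions being Cd3e and Cd8a, and 2.79% of all genes with a count in eWAT showed that order. All 9 were over 4-fold higher in the first wild-type library than in the second, against 5.92% of the 15391 genes tested in eWAT. The members were selected on this gap, so nothing is read from either count.

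No member separated the genotypes in eWAT: the ranges of Crtc1+/+ and Crtc1-/- overlapped for all 9. The mean of the summed level was 57.2 ± 73.8 CPM in Crtc1+/+ and 32.99 ± 25.6 CPM in Crtc1-/- (SD, n = 2 each), so the SD of the wild-type group exceeded its mean. The median difference between genotypes over the 9 genes, Crtc1-/- minus Crtc1+/+ in mean log2 CPM, was 0.23, ranging from -1.15 for Cd3e to 0.79 for Ptprcap, against a replicate SD of 2.18. The edgeR fit, which compares mean counts, gave negative log2 fold changes for all 8 members that passed the filter, from -1.81 for Cd79a to -0.10 for Cd3g. The median over the 9 was -0.88 by DESeq2 and -0.77 by edgeR without the filter. It was -0.06 with library-size and 0.04 with upper-quartile scaling, so its sign depended on the averaging and on the scaling. Without the first Crtc1+/+ library the median was 2.09 and without the second it was -1.94, and without the first or second Crtc1-/- library it was -0.79 or 1.10, so it depended on single libraries too. In a whole tissue, fewer lymphocytes and less RNA per lymphocyte cannot be told apart.

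The balance of B to T cell transcripts differed between libraries as well as their total. Cd79a and Cd79b together made up 62.8% (95% exact binomial interval 60.2 to 65.3) of the 1459 counts of the CD79 and CD3 genes in the first eWAT Crtc1+/+ library and 22.6% (12.93 to 34.97) of 62 counts in the second. In the eWAT libraries labelled Crtc1-/- the share was 41.1% (36.8 to 45.6) of 501 counts and 67.4% (58.6 to 75.4) of 129 counts. The shares of the 2 genotypes overlapped in eWAT, and those of replicates within a genotype did not overlap in their counting intervals. Liver shares were 76.5% and 54.2% in Crtc1+/+ and 64.3% and 65.7% in Crtc1-/-, with overlapping intervals.

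**Figure D2:**
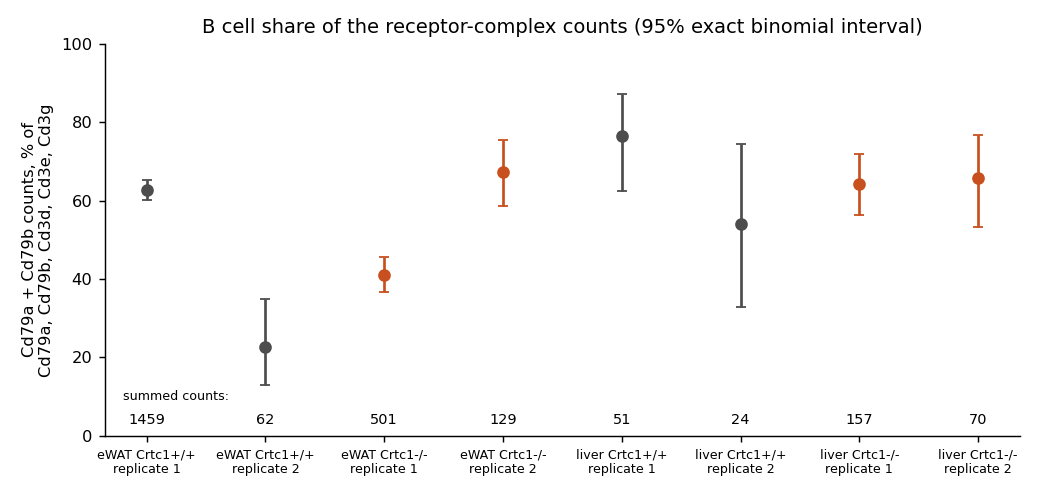
Share of Cd79a and Cd79b in the summed counts of Cd79a, Cd79b, Cd3d, Cd3e and Cd3g in each library, with 95% exact binomial intervals and the summed counts printed below. Among eWAT libraries, the first Crtc1+/+ and the second Crtc1-/- lie above 60%, and the second eWAT Crtc1+/+ library, at 22.6% of 62 counts, is lowest.

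Per transcript length, on the authors' FPKM scale, Ptprcap was the most abundant member in the first eWAT Crtc1+/+ library at 31.02, followed by Cd79a at 26.1, Cd79b at 17.7, Cd2 at 10.52, Cd3g at 10.47 and Cd3d at 10.26. Cd3e was at 6.74, Cd8a at 3.47 and Ms4a1 at 0.94 FPKM. Cd79a exceeded Cd79b by 1.47-fold in FPKM there, but was below Cd79b in the second Crtc1+/+ library, at a ratio of 0.511. With 2 libraries per group no order between neighbouring levels was tested.

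Wider sets of lymphocyte genes were read from a fit over all genes (edgeR quasi-likelihood test, Benjamini-Hochberg adjustment). Of 41 further T cell genes, 37 were in the table and 29 passed the expression filter in eWAT. Of those 29, 16 were over 4-fold higher in the first wild-type library than in the second, as were 23 of the 37 in the table, and the median log2 ratio was 2.44 against 0.01 for all genes tested. Lck, the kinase that starts T cell receptor signalling, was at 18.9 and 1.09 CPM in Crtc1+/+ and at 10.9 and 2.43 CPM in Crtc1-/-. Cd4, the co-receptor of helper T cells, was at 17.5 and 0.934 CPM in Crtc1+/+ and at 13.2 and 2.99 CPM in Crtc1-/-. Cd8b1, the partner chain of Cd8a, gave 11.6 and 0.259 CPM in Crtc1+/+ and 3.63 and 0.347 CPM in Crtc1-/-.

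Of the further T cell genes, 4 were called at an adjusted p under 0.05 and all 4 fell in eWAT of Crtc1-/-, against 5.54% of all genes called lower and 6.65% called higher. Of the 29, 23 had a negative log2 fold change, with a median of -0.93 against -0.05 for all genes tested. The 4 genes called were Tcf7 (log2 fold change -4.69, SE 0.63, edgeR adjusted p = 0.0215), Lef1 (-5.07, SE 0.70, adjusted p = 0.0226), Skap1 (-3.77, SE 0.78, adjusted p = 0.0442) and Gata3 (-5.39, SE 0.43, adjusted p = 0.0155). Tcf7 and Lef1 are transcription factors of naive T cells and of Wnt signalling, Gata3 directs helper T cells and several epithelia, and Skap1 is an adaptor of T cell adhesion. Their pattern was not that of the 9 genes: Tcf7 was at 98.4 and 116 CPM and Gata3 at 33.8 and 44.6 CPM in the wild-type libraries, high in both, as were the epididymal markers. The part of the epididymal transcripts in these calls was not tested, and without either wild-type library no gene of the whole table was called. The log2 fold changes in those fits were -4.85 and -4.54 for Tcf7, -5.03 and -5.12 for Lef1, -3.69 and -3.86 for Skap1 and -5.55 and -5.15 for Gata3.

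None of the 24 further B cell genes tested in eWAT was called by edgeR, while 4 had an unadjusted p under 0.05. Over all 15391 genes tested, 5130 had an unadjusted p under 0.05, so the B cell share was below that of all genes. DESeq2 called 4 of the B cell genes, against 4620 of all genes, with Blnk, Cd24a and Fcmr lower and Cd83 higher. Of the 24, 11 were over 4-fold higher in the first wild-type library than in the second (16 of 29 in the table), with a median log2 ratio of 1.83. Their median log2 fold change was -0.69. Cd22, an inhibitory receptor of B cells, was at 7.42 CPM in the first and 0.311 CPM in the second. Blnk, an adaptor downstream of the B cell receptor, was at 47.9 and 44.2 CPM in Crtc1+/+ and 13.8 and 4.10 CPM in Crtc1-/-, and Cd24a, also an epithelial surface protein, at 150 and 217 CPM and 31.6 and 6.53 CPM. Both were high in each wild-type library, unlike Cd79a. Cd83, an activation marker of B and dendritic cells, was at 6.55 and 2.28 CPM in Crtc1+/+ and at 34.6 and 17.9 CPM in Crtc1-/- (log2 fold change 2.57, edgeR adjusted p = 0.0731, DESeq2 adjusted p = 0.00226). Swap70, a B cell and mast cell signalling protein, had a log2 fold change of 0.58 (edgeR adjusted p = 0.264).

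Marker lists of lymphoid tissue were compared between the 2 wild-type eWAT libraries beside the members. Glycam1, a product of the high endothelial venules through which lymphocytes enter lymph nodes, was at 104 CPM in the first library, 0.622 CPM in the second and between 0 and 0.577 CPM in the other 6. Ccr7, a chemokine receptor that guides lymphocytes into lymph nodes, was at 15.2 CPM in the first and at 0.311 CPM in the second. Ccl21a, the chemokine that binds CCR7, was at 207 and 21.5 CPM in Crtc1+/+ but at 320 and 21.8 CPM in Crtc1-/-, so for this gene the first Crtc1-/- library was highest. Of 12 genes of lymphoid stroma and homing that were tested, 6 were over 4-fold higher in the first wild-type library. Madcam1, a defining gene of that list, was not among them, at 0.722 and 0.207 CPM in Crtc1+/+ and 6.82 and 1.18 CPM in Crtc1-/-.

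The same gap was seen in part of the lists of other cells. Of 18 pan-leukocyte genes, 17 were higher in the first wild-type library than in the second and 5 were over 4-fold higher, with a median log2 ratio of 1.91. All 10 hepatocyte markers were higher and 8 were over 4-fold higher, with a median of 3.13, above that of the T and B cell lists. Of 17 myeloid genes, 4 were over 4-fold higher (median 0.66), and of the epididymal and adipocyte lists none was. Nkg7, Gzma and Ccl5, products of NK and cytotoxic cells, were highest in the first eWAT library labelled Crtc1-/-, at 18.1, 15.7 and 70.1 CPM, against 5.78, 0.819 and 39.5 CPM in the first Crtc1+/+ library. Klrb1c, an NK cell receptor and the most abundant gene of that list, went the other way at 97.9 and 158 CPM in Crtc1+/+ and 3.68 and 1.25 CPM in Crtc1-/- (log2 fold change -5.68, edgeR adjusted p = 0.0193). It was the only one of 11 NK and cytotoxic genes tested that was called. The thymocyte gene Rag1 was at 0 in both wild-type libraries. The part of hepatocyte transcripts in the lymphocyte gap was not tested.

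**Figure D3:**
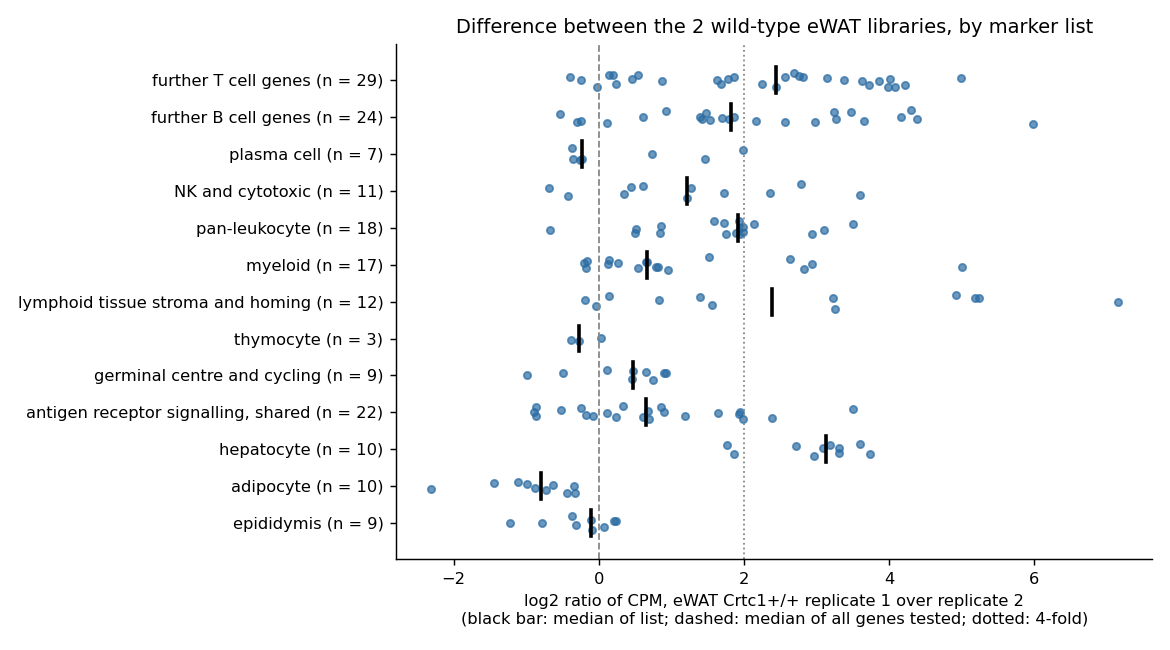
Log2 ratio of CPM between the first and the second eWAT Crtc1+/+ library for the genes of each marker list tested in eWAT, 1 point per gene, with the list's median as a black bar. The medians of the T cell (2.44), lymphoid stroma and homing (2.39) and hepatocyte (3.13) lists lie right of the 4-fold line, and the median over all genes tested is 0.01.

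**Figure D4:**
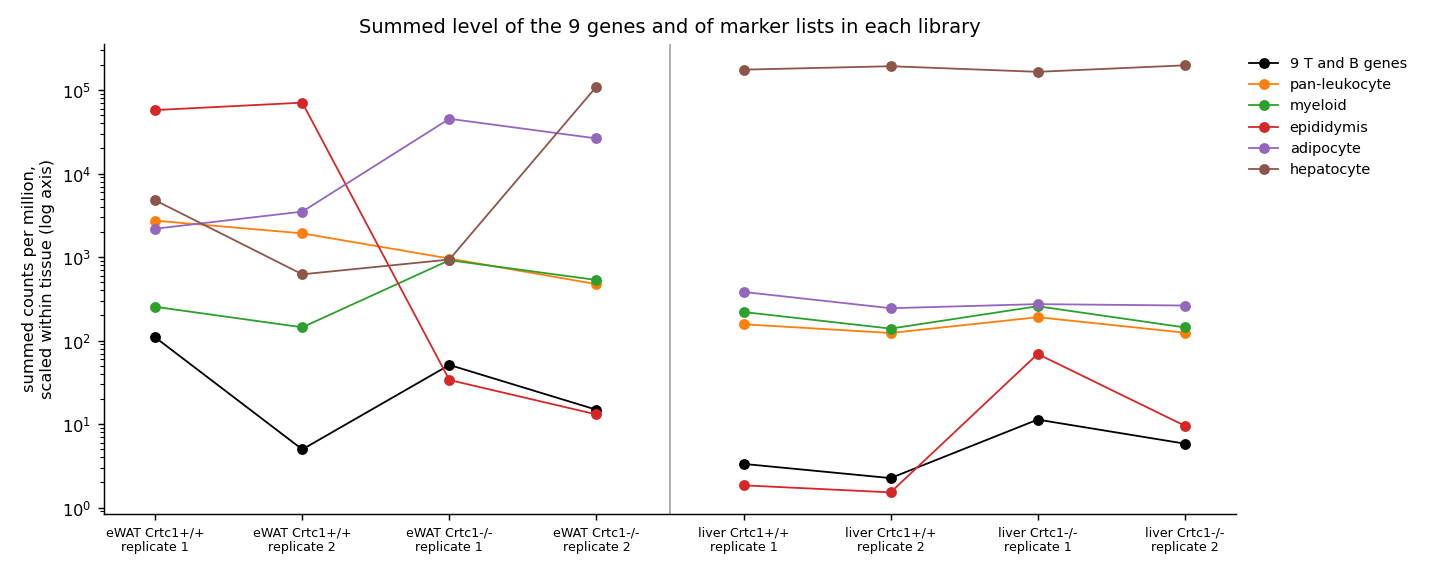
Summed CPM of the 9 genes and of 5 marker lists in each library, on a log axis, scaled within each tissue. The black line falls from 109 to 4.98 CPM between the wild-type eWAT libraries, where the epididymal sum stays within 57676 to 70781 CPM.

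Over all 8 libraries, the genes whose log2 CPM followed the mean of the 9 members most closely, out of 13904 ranked, were Ccl22 (Pearson r = 0.991), Ltb, Lck, Cd6, Cd5, Ccr7, Rasal3, Itgb7, Cd4 and Hsd3b1 (r = 0.966). The 8 points include 2 tissues and share library depth and composition, so the coefficients are descriptive. Ccl22, a chemokine, was at 16.9 and 0.156 CPM in eWAT Crtc1+/+ and at 3.74 and 0.764 CPM in Crtc1-/-, while Hsd3b1, a steroid-synthesis enzyme, was at 15.1 and 0.415 CPM and 18.9 and 0.555 CPM. Each member correlated with the mean of the others at r between 0.883 (Ms4a1) and 0.977 (Ptprcap).

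In liver the members were scarce, and most were higher in the libraries labelled Crtc1-/-. Their sum was 3.34 and 2.26 CPM (65 and 43 counts) in Crtc1+/+ and 11.3 and 5.84 CPM (216 and 100 counts) in Crtc1-/-, with means of 2.80 ± 0.76 and 8.58 ± 3.88 CPM (SD, n = 2 each). Both Crtc1-/- libraries lay above both Crtc1+/+ libraries for 8 of 9 genes, all but Ms4a1, whereas 25.1% of the genes with a count in liver had that order. For Cd3d the second Crtc1-/- and the second Crtc1+/+ library both held 3 counts (0.175 and 0.157 CPM), so its order rested on library scaling. As the members' liver levels belonged to the values that chose them, the order is a description with no test.

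Cd3g was at 0.257 and 0.210 CPM in liver Crtc1+/+ and at 1.36 and 0.759 CPM in Crtc1-/-. Cd79a was at 0.924 and 0.210 CPM in Crtc1+/+ and 3.14 and 1.23 CPM in Crtc1-/-, and Cd79b at 1.08 and 0.472 CPM and 2.15 and 1.46 CPM. Ptprcap was at 0.462 and 0.630 CPM in Crtc1+/+ and 1.83 and 1.11 CPM in Crtc1-/-. In all 4 genes the first Crtc1-/- library was highest and the groups did not overlap. Cd3d, Cd3e, Cd2 and Cd8a had between 2 and 19 counts in any liver library, and Ms4a1 between 0 and 2.

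The median difference over the 9 genes in liver was 1.24 in log2 CPM, from -0.21 for Ms4a1 to 1.86 for Cd79a, against a replicate SD of 0.48, and leaving out 1 library at a time gave 0.92 to 1.58. Of 12 further T cell genes tested in liver, 11 had a positive log2 fold change and 6 an unadjusted p under 0.05. Of 14 B cell genes, 13 and 2 did, with list medians of 1.24 and 0.86 against 0.00 for all genes tested. Over all 11707 genes tested in liver, 5894 had a positive fold change and 2029 an unadjusted p under 0.05. The B cell share with an unadjusted p under 0.05 was therefore no higher than that of all genes. Some other leukocyte lists leaned the same way, with no gene of them called by edgeR. All 4 NK and cytotoxic genes tested in liver had a positive fold change and an unadjusted p under 0.05 (median 1.81). Of 18 pan-leukocyte genes, 14 had a positive fold change and 7 an unadjusted p under 0.05 (median 0.62). Of 16 myeloid genes, 12 and 1 did (median 0.32), and of 2 plasma cell genes, 0 and 1 (median -0.56). No T or B cell gene of these lists was called by edgeR, where the lowest adjusted p were 0.160 and 0.278, against 0.0854% of all genes called, and DESeq2 called none. Epididymal markers summed to 69.2 CPM in the first and 9.57 CPM in the second liver library labelled Crtc1-/-, against 1.85 and 1.52 CPM in Crtc1+/+. Relative to the first eWAT Crtc1+/+ library, the epididymal sums were 0.120% and 0.0166% in liver Crtc1-/- and 0.00321% and 0.00264% in liver Crtc1+/+. The sums of the 9 genes were 10.4% and 5.34% in liver Crtc1-/- and 3.05% and 2.06% in liver Crtc1+/+. These levels were scaled separately in each tissue. The part of eWAT or epididymal transcripts in the liver levels was not tested.

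The difference between tissues was tested for the wider lists, as the change in eWAT minus the change in liver. Of 29 further T cell genes, edgeR called 5 with a lower change in eWAT, against 3.16% of all genes: Tcf7, Lef1, Skap1, Gata3 and Prkcq. All 29 had a negative difference (median -2.94), although only 12 of the list passed the filter in liver. Of all 15587 genes tested, 8672 had a negative difference (median -0.21). None of 24 B cell genes was called by edgeR. An unadjusted p under 0.05 was found for 2 of the 24, a smaller share than the 4193 of all 15587 genes. DESeq2 called 1 of the B cell genes, against 2056 of all genes. The 5 T cell calls were 0 without the second eWAT Crtc1+/+ library or without any of the 4 liver libraries, and 2 without the first eWAT Crtc1+/+ library. Prkcq, a kinase of T cell activation, was at 15.9 and 8.66 CPM in eWAT Crtc1+/+ and at 3.02 and 1.81 CPM in Crtc1-/- (edgeR adjusted p = 0.0473 for the difference). Lef1, Skap1 and Gata3 had between 0 and 10 counts in any liver library and did not pass the filter there, so their change in liver was hardly measured.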

How the data were processed

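RNA-seq of liver and eWAT was analysed in 8 libraries, 2 per tissue and genotype. The authors deposited estimated counts per gene, not normalized, and FPKM, which divide by transcript length and library total. HISAT, Bowtie2 and the build GRCm38.p6 are named in the submitters' processing notes, and the counting tool and its annotation are not given in the sources used here. Between 5.44% and 9.98% of values per library were not whole, so counts were rounded, although counts had been assumed in the design.

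Within each tissue, genes were filtered by filterByExpr, scaled by TMM and tested with edgeR 4.0.16 (quasi-likelihood test, R 4.3.3) and Benjamini-Hochberg adjustment over all genes tested, at an adjusted p under 0.05. SEs were derived from the fold change and its F statistic. The tissue by genotype interaction was fitted over all 8 libraries with no term for the mouse. Its p-values therefore do not take into account any mice shared between tissues. Log2 CPM used a prior count of 2. Alternatives were DESeq2 1.42.0, limma 3.58.1 on quantile-normalized log2(FPKM + 1) or log2(FPKM + 0.1), other scalings, no filter, a replicate block, 1 fit of all libraries and leaving out each library. The fits were tested on simulated data. There the interaction fit recovered fewer changed genes than the single-tissue fits and missed a recovery level set by guess, which was then replaced by checks of bias, sign and false calls, so its lack of calls is weak evidence of no difference.

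The 9 genes and all lists were chosen with earlier results of these data known. Named list genes were the 3 of highest mean CPM per list (5 for T and B cell genes), those called, and the 10 genes most correlated with the members among those with a mean of at least 1 CPM. Further genes (Lck, Cd4, Cd8b1, Cd22, Glycam1, Madcam1, Gzma, Rag1 and Fcmr among them) were named after their values were seen. At 16560085 to 19721481 counts per library, 3 counts correspond to 0.144 to 0.208 CPM. The paper states that each group was sequenced as 2 independent biological replicates, and p-values measure the spread between these libraries.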

Additional observations from a re-analysis of the deposited data

Results flagged for a closer look

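The change between genotypes differed between eWAT and liver by the edgeR interaction test for 5 of 29 further T cell genes and 2 of 18 pan-leukocyte genes tested, all lower in eWAT, against 3.16% of all genes. The change in eWAT minus that in liver was -4.04 on the log2 scale for Tcf7 (edgeR adjusted p = 0.0175), -7.52 for Lef1 (0.0281), -6.24 for Skap1 (0.0244), -6.12 for Gata3 (0.0144) and -3.95 for Prkcq (0.0473). Lef1, Skap1 and Gata3 had 0 to 10 counts in the liver libraries and did not pass the liver filter, so these 3 fitted differences rest on the change in eWAT and their size is uncertain. It was -5.73 for Cd52, a small surface protein of leukocytes and of the epididymis (0.0340), and -2.18 for Lcp1, an actin-bundling protein of leukocytes (0.0459). In eWAT, Cd52 was at 1955 and 1375 CPM in Crtc1+/+ and at 139 and 22.1 CPM in Crtc1-/-, and Lcp1 at 252 and 403 CPM and at 62.1 and 54.6 CPM. The same test also called genes of other lists, among them Klrb1c (-9.16, adjusted p = 0.009505) and Derl3 (-4.45, adjusted p = 0.0205) with a lower change in eWAT and Cxcl12 (2.58, adjusted p = 0.0231) with a higher one. All 7 genes of the T cell and pan-leukocyte lists were higher in both eWAT Crtc1+/+ libraries than in both libraries labelled Crtc1-/-, the libraries that also differed in epididymal markers, whose part was not tested.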

How the results depend on the processing

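In eWAT, 1875 genes were called by edgeR, 4620 by DESeq2, 3861 in 1 fit of all 8 libraries and 0 with the replicate block, and 0 (without either Crtc1+/+ library) to 3073 (without the first Crtc1-/- library) when 1 library was left out. The share called higher was 54.6%, but 42.8% with upper-quartile and 35.3% with library-size scaling, which shifted the median of all genes to -0.25 and -0.35. The 4 T cell calls became 0 with the replicate block and 0 to 4 when 1 library was left out, being lost without the first or the second Crtc1+/+ library. B cell calls, 0 by edgeR, were 4 by DESeq2, 3 and 1 by limma at pseudocounts of 1 and 0.1, 1 in the fit of all libraries and 0 to 2 when 1 library was left out (2 without either Crtc1-/- library). In liver, 10 genes were called, against 311 by DESeq2, 301 without the filter, 0 by limma at either pseudocount, 82 with the replicate block, 0 in 1 fit of all libraries and 1 (without the second Crtc1+/+ library) to 1507 (without the first Crtc1-/- library). Without the first liver Crtc1-/- library 2 T cell genes, Icos and Zap70, were called, so that count ran from 0 to 2. The interaction called 1081 genes, against 2056 by DESeq2, 705 with library-size scaling, 1746 with the replicate block and 0 (without the first liver Crtc1+/+ library) to 2261 (without the first eWAT Crtc1-/- library). The causes were not tested.

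The median of the 9 genes in eWAT ran from -1.94 to 2.09 when 1 library was left out and was -0.88 by DESeq2 and -0.77 in the unfiltered edgeR fit, each within 1 replicate SD (2.18) of the value reported, 0.23. In liver it was 0.28 by limma on log2(FPKM + 1), against 1.24, a pseudocount above most of the members' liver FPKM. Of 156 alternatives for 13 named T and B cell genes in eWAT, 127 kept direction and call, and 3 turned the direction of genes that were not called: Thy1 (0.48) to -0.15 without the second Crtc1+/+ library and -0.50 without the first Crtc1-/- library, within a range up to 1.66, and Cd72 (-0.64) to 0.039 without the second Crtc1-/- library, within a range down to -2.02. Only a replicate number links particular samples across groups: the paired deviations correlated at 0.02 in eWAT and 0.074 in liver. Counts of 0 to 23 per member in the second eWAT Crtc1+/+ library, and of 0 to 60 in liver, limit each ratio.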
